A study of Mus musculus with 12 samples.

Results

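The amyloid-bearing frontal cortex of female and male APP/PS1 mice with an intact Hras gene was compared here, with attention to the glial response to amyloid. APP/PS1 mice carry transgenes that raise the release of amyloid peptide from the amyloid precursor protein (App), and they deposit amyloid in the brain. Of 12 libraries in the study, 6 met the rule: 3 from APP/PS1 females and 3 from APP/PS1 males, each from 1 mouse aged 9 months. The other 6 came from APP/PS1/Hras-/- mice of the same age, 3 of each sex, which carry the same transgenes and a knockout of Hras, a small GTPase that relays growth factor signals. They serve below as a comparison for the sex difference, and they share the estimate of spread behind its errors and p-values. All 4 groups carry the transgenes, so no level here is set against a brain without amyloid. Messenger RNA was measured as read counts per gene and is given as CPM, the count of a gene scaled to the total of its library. Members were autosomal genes at 1 CPM or more in at least 3 of the 6 libraries, which left 14897 genes for testing, 13258 of them protein coding.

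Microglia, the macrophages of the brain, gather around amyloid plaques. There they lower genes of their resting programme, such as P2ry12, and raise a plaque-associated programme that depends on the receptor Trem2 and its adaptor Tyrobp. Astrocytes near plaques raise Gfap and other reactive genes. Complement proteins from these cells tag material for uptake, and lysosomal enzymes degrade what is taken up.

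Total counts in the 6 libraries ran from 14609454 to 20174131. Xist was at 886 CPM or more in the females and at 0.0518 CPM or less in the males, and Ddx3y, on the Y chromosome, was at 0 in the females and at 81.8 CPM or more in the males, so the libraries matched their sex labels. RIN, a score of RNA integrity that the labels give for each mouse, was 8.6, 8.5 and 8.5 in females and 7.8, 8.2 and 8.3 in males, with no overlap (two-sided exact permutation p = 0.1, below which no split of 6 mice into 3 and 3 can go). Tissue content differed between libraries. Ttr, a transcript of choroid plexus, was at 2846 CPM in female 2 and between 27.7 and 188 CPM in the other 5. Striatal markers summed to 514, 683 and 368 CPM in females and to 224, 506 and 920 CPM in males.

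App and Prnp overlapped between the sexes. App was at 3789, 3316 and 3280 CPM in females and at 2698, 3478 and 3256 CPM in males (exact permutation p = 0.4). Prnp, the prion protein gene, averaged 2342 and 2275 CPM (exact permutation p = 0.5). Counts of App may hold reads of the mouse gene and of a transgene. Hras was at 77.9, 80 and 74.1 CPM in females and at 100, 79.7 and 84.3 CPM in males, with overlapping groups (exact permutation p = 0.2). In the libraries labelled APP/PS1/Hras-/- it was at 19.3, 20.5 and 23.2 CPM in females and at 23.3, 20.9 and 20.6 CPM in males, below every APP/PS1 library but not at 0.

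No gene passed the test of females against males. The quasi-likelihood F test of edgeR called 0 of 14897 genes (0%) at an adjusted p of 0.05, with a smallest adjusted p of 0.362. At an unadjusted p under 0.05 stood 1643 genes (11%), of which 960 lay higher in females (6.44% of genes tested) and 683 lower (4.58%). Every female lay above every male for 10.8% of genes and below every male for 9.65%. Differences below are therefore values with their errors, and none is a call. In simulated counts with the means and depths of these libraries, 22% of genes given a log2 change of 0.5 were called, and 66% of those given a change of 1. Those counts were drawn for each gene on its own, without differences between mice in RIN or tissue content. The shares recovered therefore need not hold in the real libraries.

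Most glial genes lay higher in females. Of 296 tested members of 13 glial gene lists, 249 lay higher in females, against 52% of all genes tested. The 296 include 3 that passed the filter on low values through the females alone, so their differences are partly fixed by it. Every female lay above every male for 128 of the 296, against 10.8% of all genes. At an unadjusted p under 0.05 stood 117 that were higher in females and 2 that were lower, against 6.44% and 4.58% of all genes. The same shares over all genes are the background of the list counts below. The median log2 difference of these members (females minus males) was 0.31, against 0.01 over all genes. With RIN as a covariate 206 of the 296 still lay higher and the median was 0.16, but only 24 (8.11%) were higher at an unadjusted p under 0.05, against 4.45% of all genes. RNA quality and sex cannot be told apart fully in these 6 libraries. With each library left out in turn the count of 117 became 83 without male 1 (against 4.32% of all genes), 127 without male 2 (5.76%), 76 without male 3 (4.91%), 102 without female 1 (5.5%), 96 without female 2 (3.43%) and 90 without female 3 (7.22%). The shares over all genes in each of these settings are also the background of the list counts given below for that setting. In bulk tissue, more cells of a type and more RNA of a gene per cell cannot be told apart either.

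**Figure D1:**
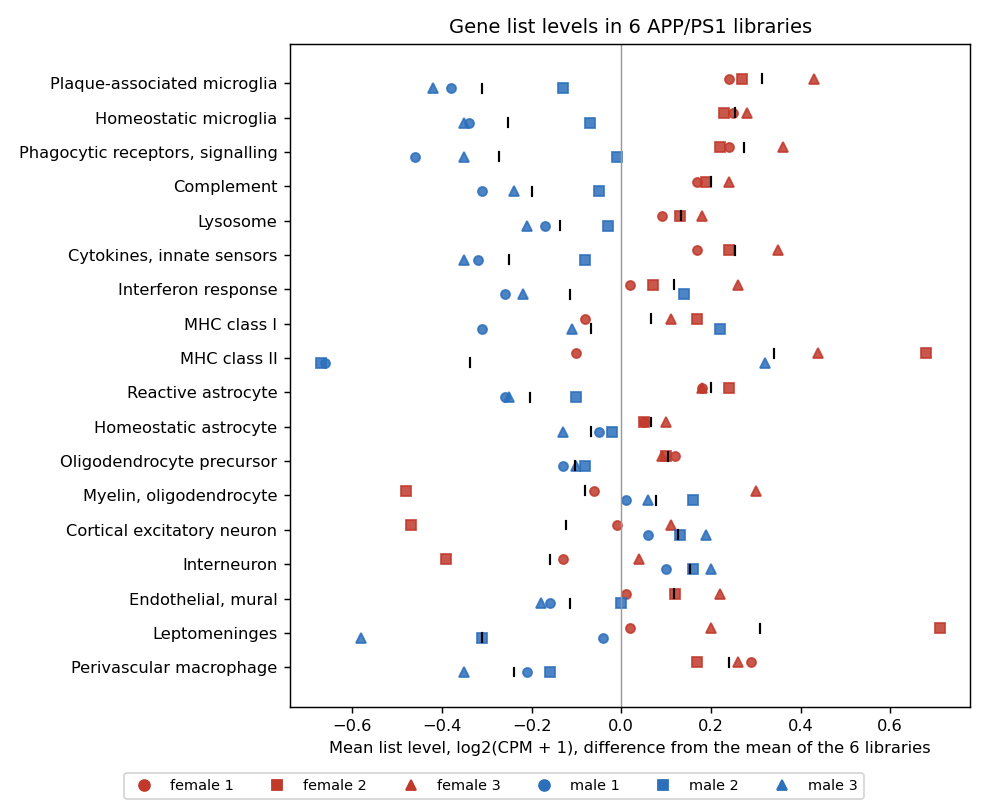
Level of 18 gene lists in the 6 APP/PS1 libraries, as the mean over members of log2(CPM + 1) less the mean of the 6 libraries; points are mice (red, females; blue, males) and black ticks are group means. Microglial lists separate the sexes, with male 2 nearest the females, while interferon, MHC and myelin lists overlap.

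The plaque-associated microglial programme lay higher in females. Of its 33 listed genes, all tested, 30 lay higher, 21 at an unadjusted p under 0.05, against 6.44% of all genes. Every female lay above every male for 23, against 10.8% of all genes. The median log2 difference was 0.52. Trem2, the lipid-sensing receptor, was at 63.1, 57.7 and 78.7 CPM in females and at 38.9, 45.2 and 28.1 CPM in males. The log2 difference of Trem2 was 0.83 (SE 0.27), and the groups did not overlap. Its adaptor Tyrobp was at 68, 58 and 79 CPM against 28.9, 39.5 and 25.5 CPM, a log2 difference of 1.12 (SE 0.29). In both genes the lowest female was female 2 and the highest male was male 2.

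Larger differences were measured for Cst7, Itgax, Clec7a and Gpnmb. Cst7, an inhibitor of lysosomal proteases, was at 34.8, 30.9 and 46.6 CPM in females and at 8.37, 18 and 9.31 CPM in males, 3.13-fold on the fitted scale (log2 1.65, SE 0.49). Itgax, which encodes the integrin CD11c, was at 19.1, 23.9 and 29.8 CPM against 6.09, 11.3 and 11.2 CPM. Clec7a, a receptor for fungal glucans that marks plaque microglia, was at 14.6, 16.1 and 19.2 CPM against 6.32, 8.8 and 6.42 CPM. The log2 differences of Itgax and Clec7a were 1.35 (SE 0.34) and 1.21 (SE 0.34), and neither gene overlapped between the sexes. Gpnmb, a lysosomal glycoprotein named after its values were seen, had the largest difference of the list, with 12.4, 19.6 and 20.2 CPM in females and 2.69, 3.42 and 1.03 CPM in males (log2 2.84, SE 0.83).

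The smallest p-values of the list were those of Cd84, an immune cell adhesion receptor, and Spp1, the secreted protein osteopontin. Cd84 was at 9.42, 10.2 and 13.5 CPM against 5.33, 6.73 and 4.62 CPM (log2 0.99, SE 0.23). Spp1 was at 16.9, 23.5 and 30 CPM in females and at 10.5, 9.37 and 6.07 CPM in males (log2 1.43, SE 0.33). Cd68, a lysosomal membrane protein of phagocytes, was at 36.5, 35 and 52.3 CPM against 22.3, 23.9 and 19 CPM (log2 0.92, SE 0.23). Female 3 was the highest library for Trem2, Tyrobp, Cst7, Itgax, Clec7a, Spp1, Cd84 and Cd68.

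Not all members differed by so much. Apoe, the main lipid carrier of the brain, was at 1309, 1331 and 1341 CPM against 1240, 1104 and 1015 CPM (log2 0.24, SE 0.11). Axl, a receptor for dying cells, differed by 0.25 (SE 0.11) and Lpl, lipoprotein lipase, by 0.24 (SE 0.22), both with overlapping groups. The 3 members that lay lower in females were Fam20c (log2 −0.14), Ank (−0.09) and Fth1 (−0.04). Lgals3 passed the filter on low values through the females alone, so its difference is partly fixed by that filter.

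**Figure D2:**
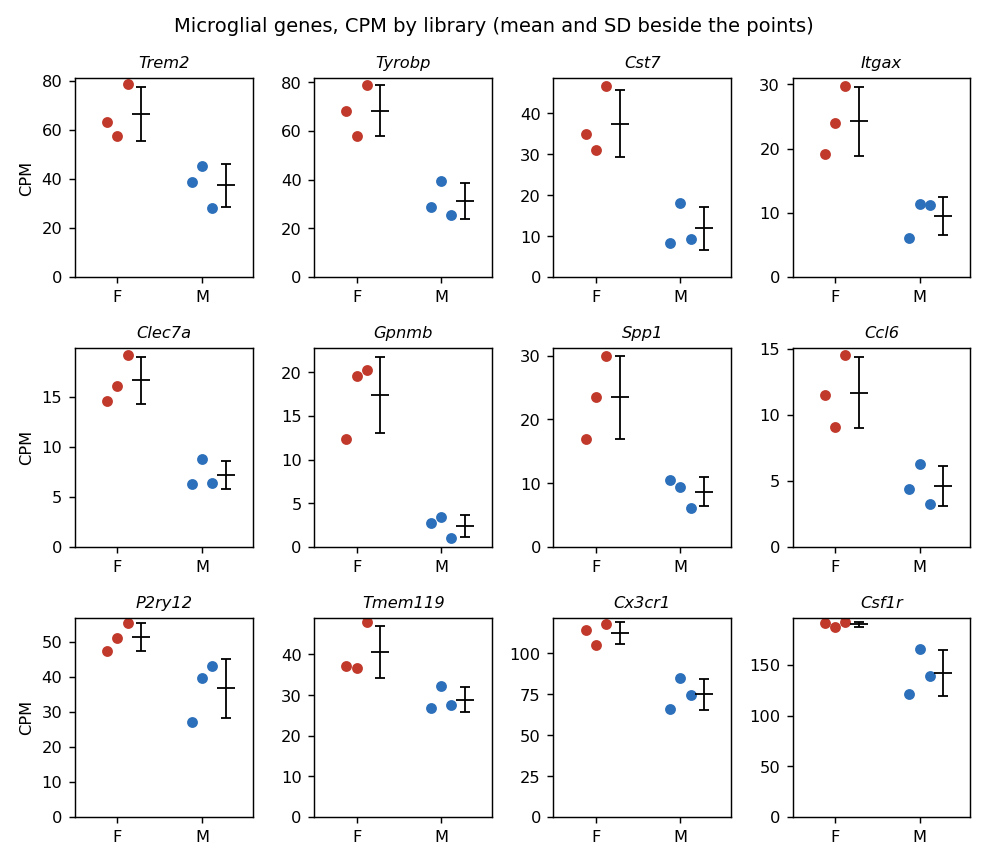
CPM of 12 microglial genes in each APP/PS1 library (F, 3 females in red; M, 3 males in blue), with the mean and SD in black beside the points and axes from 0. In these 12 genes the lowest female lies above the highest male. That holds for 23 of the 33 plaque and 14 of the 20 tested homeostatic genes, against 10.8% of all genes. The plaque genes Axl and Lpl, which overlap, are not shown. Gpnmb was chosen after its values were seen.

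Resting-state genes of microglia also lay higher in females rather than lower. All 20 tested members of the homeostatic list lay higher, 15 at an unadjusted p under 0.05, against 6.44% of all genes. Every female lay above every male for 14, against 10.8% of all genes. The median log2 difference was 0.53. P2ry12, a purine receptor that steers microglial processes, was at 47.4, 51.1 and 55.4 CPM against 27.2, 39.7 and 43.1 CPM (log2 0.49, SE 0.16). Tmem119, a surface marker of resident microglia, was at 37.1, 36.7 and 47.9 CPM against 26.7, 32.3 and 27.5 CPM (log2 0.49, SE 0.14). Cx3cr1, the receptor for neuronal fractalkine, was at 114, 105 and 118 CPM against 66, 84.6 and 74.3 CPM (log2 0.58, SE 0.12). Csf1r, the survival receptor of microglia, was at 191, 187 and 192 CPM against 121, 166 and 139 CPM (log2 0.42, SE 0.15). Siglech, a sialic acid receptor, differed by 0.79 (SE 0.18). Gpr34, on the X chromosome, was outside the tested set.

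Since resting and plaque-associated genes both lay higher, each plaque gene was also set against the mean of the homeostatic list in the same mouse, a comparison chosen after the values were seen. Relative to that mean, 11 of the 33 plaque genes kept every female above every male, and 10 had every female below every male. Over all genes tested those shares were 0.295% and 75.1%, since the homeostatic mean itself lay higher in females. The 11 were Gpnmb (difference 1.97 in log2(CPM + 1)), Cst7 (1.12), Spp1 (0.83), Itgax (0.77), Tyrobp (0.6), Clec7a (0.6), Lilrb4a (0.47), Lyz2 (0.42), Cd68 (0.36), Cd84 (0.36) and Lgals3 (0.27), the last of which had passed the filter on low values through the females alone. The gap between the lowest female and the highest male was narrow for Spp1 (0 against −0.04) and Cd68 (0 against −0.05). Trem2 overlapped on this scale, from −0.01 to 0.38 in females and from −0.43 to 0.01 in males. Apoe, Axl and Igf1 were among the 10.

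Receptors for phagocytosis and their signalling proteins followed the same pattern. Of 20 tested members 19 lay higher in females, 16 at an unadjusted p under 0.05, with a median log2 difference of 0.55. Fcer1g, the signalling chain of Fc receptors, was at 16.8, 18.4 and 15.4 CPM in females and at 8.25, 8.44 and 7.86 CPM in males (log2 1.04, SE 0.3). Lyn, a Src family kinase, was at 14.5, 13.4 and 13.5 CPM against 7.61, 10.9 and 8.83 CPM (log2 0.6, SE 0.16). Neither gene overlapped between the sexes. The count of 16 was 8 without male 1, 8 without female 3 and 10 without male 3. Gas6, a bridging ligand for dying cells, was the 1 member that lay lower, by −0.04. Fcgr4, Cd36 and Msr1 were under the CPM minimum, and Btk lies on the X chromosome.

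Complement genes lay higher in females for 16 of 18 tested members, with a median log2 difference of 0.53 and 10 at an unadjusted p under 0.05. That count was 3 without male 3, 4 without male 1, 6 without female 3 and 2 with RIN as a covariate. C1qa, a chain of the recognition protein C1q, was at 118, 125 and 146 CPM against 81.3, 98.6 and 70 CPM (log2 0.64, SE 0.23). C4b, made largely by astrocytes, was at 320, 240 and 319 CPM against 187, 238 and 190 CPM (log2 0.51, SE 0.22), and its lowest female exceeded its highest male by a narrow margin. Serping1, an inhibitor of the first complement proteases, differed by 0.5 (SE 0.17) and was among the 2 smallest p-values of the list. C3, the central component, was at 2.94, 2.2 and 2.93 CPM in females and at 0.41, 0.932 and 0.897 CPM in males. C3 and C2 passed the filter through the females alone, so their differences are partly fixed by that filter. The counts of 16 and 10 include both.

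Among lysosomal genes 28 of 31 tested members lay higher in females, but the median log2 difference was smaller, at 0.2. At an unadjusted p under 0.05 stood 16 that were higher in females and 1 that was lower. The count of 16 was 11 without male 3, 11 without female 3 and 2 with RIN as a covariate. Ctsd, the protease cathepsin D, was at 498, 485 and 609 CPM against 312, 354 and 259 CPM (log2 0.78, SE 0.2). Gusb, which cleaves glucuronides, was at 37.4, 30.9 and 44.1 CPM against 21.7, 23.2 and 21.3 CPM (log2 0.76, SE 0.16). Hexa, a subunit of the ganglioside-degrading hexosaminidase, differed by 0.51 (SE 0.13), and Ctss, a microglial cathepsin, by 0.61 (SE 0.24). Psap and Ctsb, named after their values were seen, overlapped between the sexes, with log2 differences of −0.05 and 0.09. Lamp2 is X-linked and was not tested.

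Cytokines and innate sensors lay higher in females for 21 of 22 tested members, 13 at an unadjusted p under 0.05 (7 without male 3 and 8 without female 3), with a median log2 difference of 0.58. The chemokine Ccl6 was at 11.5, 9.07 and 14.5 CPM against 4.39, 6.26 and 3.24 CPM (log2 1.33, SE 0.3). Ccl3, another chemokine of activated microglia, was at 3.09, 3.52 and 4.52 CPM against 1.64, 1.81 and 0.966 CPM (log2 1.31, SE 0.43). Tlr4, the lipopolysaccharide receptor, was at 2.58, 2.89 and 2.68 CPM against 0.878, 1.45 and 0.966 CPM (log2 1.29, SE 0.29). The classical cytokines Il1b, Tnf, Ccl2, Ccl5 and Il1rn did not reach the CPM minimum. Each of those 5 held 23 counts or fewer in the 3 females together and 21 or fewer in the 3 males.

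The count of interferon-response genes at a small p depended on single mice, most of all on male 2. Of 31 tested members 29 lay higher in females, with a median log2 difference of 0.27. Only 3 stood at an unadjusted p under 0.05 and 4 had every female above every male, against 6.44% and 10.8% of all genes. Without male 2 all 31 lay higher, with a median of 0.39, and 12 stood at that level (38.7%, against 5.76% of all genes). Without male 1 the count was 0 (against 4.32%), and without male 3 it was 2 (6.45%, against 4.91%). Without female 2 or female 3 it was 1 (3.23%, against 3.43% and 7.22%). Gbp2, an interferon-induced GTPase, was at 5.21, 5.66 and 6.2 CPM against 2.69, 4.45 and 3.86 CPM (log2 0.63, SE 0.25), and Slfn5 differed by 0.43 (SE 0.17). Ifit3, an antiviral protein that binds foreign RNA, was at 15.9, 12.8 and 17.9 CPM against 13.5, 18.3 and 12.2 CPM, and Irf7, a transcription factor that amplifies the response, averaged 4.47 and 3.73 CPM, both with overlapping groups. With RIN as a covariate the median of this list was −0.01.

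Promoters of 3 members of the interferon and microglial lists are shown, picked because they hold a match and every female lay above every male. They therefore do not show how common a match is in their lists. The sequences are RefSeq windows of 250 bases before to 50 bases after the start site on GRCm38.p6. The capitals mark the core of the interferon-stimulated response element (GAAA and GAAA parted by any 2 bases) or of the site for PU.1 (GAGGAAGT), the factor that specifies microglia, each searched on both strands. In Gbp2 the match is on the other strand and so reads as the reverse complement.
Gbp2, chr3:142620413-142620712, plus strand, element at −59 from the start site: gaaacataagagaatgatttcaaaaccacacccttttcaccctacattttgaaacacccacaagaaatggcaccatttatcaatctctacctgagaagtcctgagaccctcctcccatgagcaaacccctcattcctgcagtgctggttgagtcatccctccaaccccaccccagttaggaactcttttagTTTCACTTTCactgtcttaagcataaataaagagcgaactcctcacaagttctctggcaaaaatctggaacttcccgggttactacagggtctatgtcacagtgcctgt
Spp1, chr5:104434861-104435160, plus strand, element at −113: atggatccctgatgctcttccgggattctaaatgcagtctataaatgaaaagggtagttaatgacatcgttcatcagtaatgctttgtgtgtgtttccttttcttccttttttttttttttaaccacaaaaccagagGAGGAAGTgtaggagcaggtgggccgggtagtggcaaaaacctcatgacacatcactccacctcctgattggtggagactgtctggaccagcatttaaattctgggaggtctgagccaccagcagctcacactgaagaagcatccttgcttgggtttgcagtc
Vav1, chr17:57278850-57279149, plus strand, element at −11: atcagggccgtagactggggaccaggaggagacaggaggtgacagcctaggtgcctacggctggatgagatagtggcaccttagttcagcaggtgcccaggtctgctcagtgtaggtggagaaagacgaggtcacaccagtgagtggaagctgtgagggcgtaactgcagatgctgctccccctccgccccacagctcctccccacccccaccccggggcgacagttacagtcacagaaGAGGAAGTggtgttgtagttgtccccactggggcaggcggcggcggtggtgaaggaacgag
The interferon element was present in 3.44% of all 32851 promoter windows and the PU.1 core in 3.2%. Windows were found for 23 of 31 interferon genes and for 58 of 73 genes of the plaque, homeostatic and phagocytic lists, under 80% in each case, so the check of motif shares by list is void. A match is a description of the letters and not evidence of binding.

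The list levels of MHC genes, which present antigen, overlapped between the sexes for class I and for class II. For class I, 11 of 15 tested members lay higher in females (median log2 0.16) and none of these stood at an unadjusted p under 0.05. Psmb10, a subunit of the immunoproteasome that cuts peptides for class I molecules, had the smallest p of the list and lay lower in every female, at 29.8, 25.6 and 33 CPM against 38.8, 33.8 and 35.9 CPM (log2 −0.3, SE 0.11). H2-K1 was at 27.6, 39.6 and 34.1 CPM against 20, 42.9 and 30.9 CPM, with male 2 the highest. B2m, the light chain of class I molecules, was at 121, 126 and 132 CPM against 70.6, 112 and 79.8 CPM (log2 0.53, SE 0.24). The 6 tested class II genes lay higher in females, with a median of 0.89 that ran from 0.58 without female 2 to 1.57 without male 3. Cd74, the invariant chain, was at 24.8, 36.5 and 45.4 CPM against 14.8, 10.2 and 31 CPM (log2 0.94, SE 0.68). H2-Aa was at 5.62, 15.6 and 11.9 CPM against 2.87, 2.43 and 10.3 CPM, so male 3 exceeded female 1. With RIN as a covariate the class II median was −0.16 and the class I median −0.14.

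Reactive astrocyte genes lay higher in females, while most genes of resting astrocytes were close to equal. Of 29 tested reactive members 28 lay higher, 14 at an unadjusted p under 0.05 (8 without female 2 and 9 without male 3), with a median log2 difference of 0.37. Gfap, the intermediate filament protein that marks reactive astrocytes, was at 1235, 1103 and 1110 CPM against 672, 826 and 644 CPM (log2 0.69, SE 0.23). Serpina3n, a secreted protease inhibitor, was at 58.8, 44 and 57.8 CPM against 23.1, 37.9 and 29 CPM (log2 0.83, SE 0.26). Vim, vimentin, differed by 0.44 (SE 0.2). The smallest p-values of the list were those of Ggta1, a galactosyltransferase (log2 0.9, SE 0.18), and Cp, the copper-carrying ferroxidase ceruloplasmin (log2 0.72, SE 0.14).

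The 28 homeostatic astrocyte genes had a median log2 difference of 0.14, with 22 higher in females and 4 at an unadjusted p under 0.05 (2 without female 1). Aqp4, the water channel of astrocyte end feet, stood out with 178, 200 and 158 CPM in females and 98, 123 and 116 CPM in males (log2 0.67, SE 0.17). Slc1a3, a glutamate transporter, differed by 0.3 (SE 0.096). The more abundant glutamate transporter Slc1a2 was at 3783, 3390 and 3944 CPM against 3033, 3493 and 3420 CPM, with overlap (log2 0.16, SE 0.12).

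**Figure D3:**
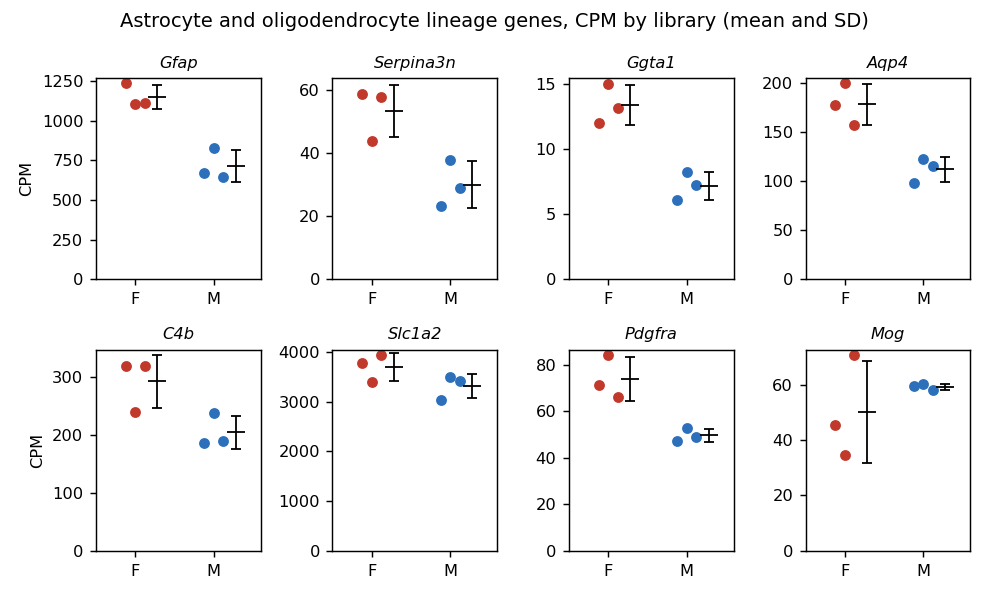
CPM of 8 astrocyte, complement and oligodendrocyte lineage genes in each APP/PS1 library (F, females in red; M, males in blue), with the mean and SD in black and axes from 0. Gfap, Serpina3n, Ggta1, Aqp4, C4b and Pdgfra do not overlap between the sexes; Slc1a2 and Mog do.

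Oligodendrocyte precursors and mature oligodendrocytes differed in direction. Of 18 tested precursor genes 15 lay higher in females (median log2 0.2), 5 at an unadjusted p under 0.05. Pdgfra, the growth factor receptor that defines precursors, was at 71.5, 84.5 and 66.2 CPM against 47.2, 52.7 and 49.1 CPM (log2 0.57, SE 0.13). Cspg4, the NG2 proteoglycan, was at 36.3, 38.7 and 31.3 CPM against 27.2, 28.5 and 25.3 CPM (log2 0.39, SE 0.12). Of 25 tested myelin genes 21 lay lower in females, with a median log2 difference of −0.13 and none at an unadjusted p under 0.05. Mbp, a main myelin protein, was at 2382, 1536 and 3491 CPM in females and at 2646, 2809 and 2673 CPM in males, so females held the lowest and the highest value. Without female 2 the myelin median was 0.05, and with RIN as a covariate it was −0.4 with 0 of 25 genes higher in females.

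Genes that make, cut and clear the amyloid precursor protein did not lean either way. Of 22 members 12 lay higher in females and 10 lower (median log2 0.01), 3 and 1 of them at an unadjusted p under 0.05. Adam10, the main alpha-secretase, was at 89.5, 85.1 and 84.9 CPM against 72.1, 75.2 and 77.9 CPM (log2 0.21, SE 0.064). Adam17, a related sheddase, was at 26.1, 29.4 and 26.4 CPM against 19.1, 20.7 and 23.9 CPM (log2 0.36, SE 0.12). Bace1, the beta-secretase, differed by 0.06 (SE 0.1), and Ide, which degrades amyloid peptide, by 0.02 (SE 0.089).

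**Figure D4:**
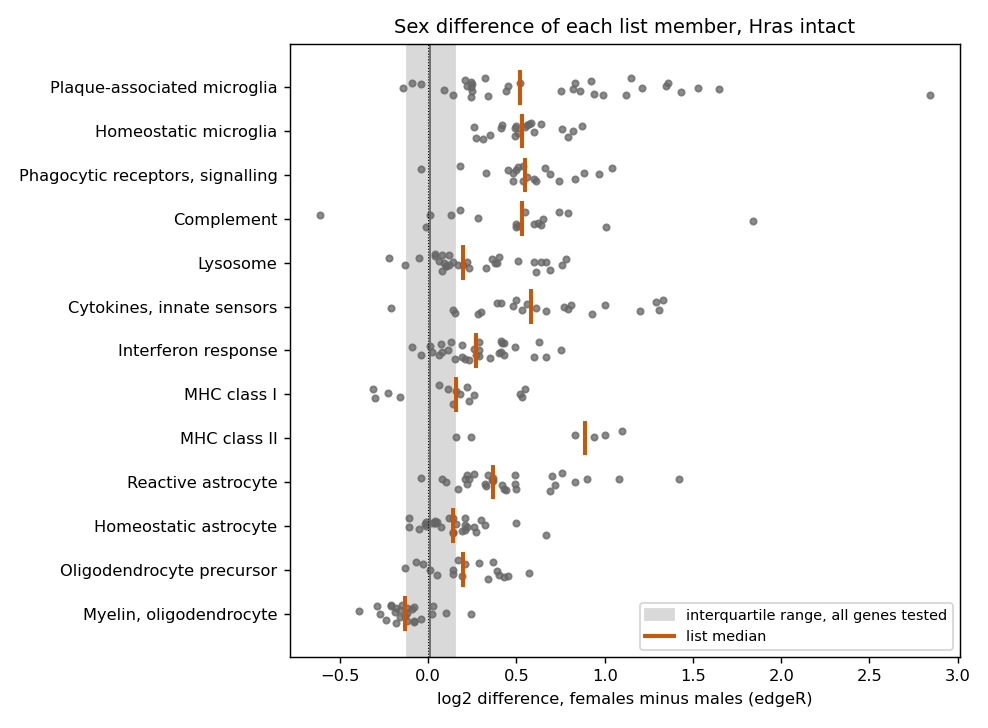
Log2 difference (females minus males, edgeR) of each tested member of 13 glial lists; points are genes, orange bars are list medians, and the grey band is the interquartile range of the 14897 genes tested. The medians of the plaque (0.52), homeostatic (0.53) and phagocytic (0.55) lists lie right of the band, and that of myelin (−0.13) lies left of 0.

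Markers of other cells also differed between the libraries, and their part in the glial differences was not tested. The 5 tested markers of perivascular macrophages, which share genes with microglia, all lay higher in females without overlap (median log2 0.64, summed level 43.7 to 45.7 CPM against 30.6 to 33.3 CPM). The 5 include Cbr2, which passed the filter through the females alone, so its difference is partly fixed by that filter. Lyve1 and Pf4 were under the CPM minimum. Of the other lists, all 12 leptomeningeal genes (median 0.66, summed level 158 to 265 CPM against 95.4 to 140 CPM), all 6 tested ependymal genes (median 0.98, 21.9 to 30 CPM against 11.4 to 17.4 CPM) and all 19 tested vascular genes (median 0.25, 569 to 626 CPM against 489 to 547 CPM) lay higher in females. Markers of cortical excitatory neurons (8 of 9 lower, median −0.23) and interneurons (7 of 8 lower, median −0.29) leaned the other way. So did striatal markers (8 of 11 lower, median −0.19). Summed levels of all these neuronal lists overlapped between the sexes. They ran from 4719 to 5388 CPM in females and from 5054 to 5413 CPM in males for excitatory markers. For interneuron markers they ran from 785 to 992 CPM and from 979 to 1135 CPM. For striatal markers they ran from 368 to 683 CPM and from 224 to 920 CPM. Female 2 was the lowest of the 6 libraries for excitatory and interneuron markers. No lymphocyte or neutrophil marker of 12 reached the CPM minimum; the defining genes Cd3e, at 3 and 6 counts, and S100a8, at 4 and 10 counts in females and males, were near 0.

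The choroid plexus genes rested on female 2, where the 7 tested summed to 4777 CPM, against 256 to 379 CPM in the other 5 libraries. Without female 2 the plaque list median was 0.56 with 20 of 33 members at an unadjusted p under 0.05 and higher, and the homeostatic list median was 0.56 with 15 of 20, against 3.43% of all genes. Both medians were thus as large without that library. With RIN as a covariate the plaque median was 0.32 with 4 of 33 such members, the homeostatic median 0.4 with 2 of 20, the phagocytic median 0.22 with 0 of 20 and the reactive astrocyte median 0.33 with 5 of 29.

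The genes with the smallest p-values were mostly higher in females. Among the first 25 by p, 23 lay higher, against 52% of all genes, and 9 belonged to glial lists. Those lists hold 296 of the 14897 genes tested and were chosen with earlier results of these data known. The first 5 among higher genes were Zfp36l1, an RNA-binding protein that destabilises AU-rich messages (28.6, 31.7 and 29.2 CPM against 20.3, 21.4 and 19.6 CPM, log2 0.54, SE 0.087), the membrane proteins Tmem176b (log2 0.53, SE 0.091) and Tmem176a (0.62, SE 0.12), which are neighbouring genes of 1 family, the arginine transporter Slc7a2 (0.52, SE 0.097) and the glycosyltransferase Gcnt1 (0.98, SE 0.19). The first 5 among lower genes were Gemin7, of the SMN complex (14.6, 15.4 and 17.1 CPM against 24.2, 21.3 and 21.2 CPM, log2 −0.5, SE 0.11), Avpi1 (−0.48, SE 0.11), Ogfod2 (−0.38, SE 0.086), the tropomyosin Tpm2 (−0.63, SE 0.15) and the adhesion protein Kirrel2 (−0.83, SE 0.2). These 10 genes were picked by their p in the same 6 libraries, so their lack of overlap between the sexes follows largely from that choice. The edgeR adjusted p of each was at least 0.362.

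A second count model gave a different number of calls, which depended on single mice. DESeq2 called 35 genes, 33 higher in females (0.222% of genes tested) and 2 lower (0.0134%). Of the 33, 16 were in glial lists, which hold 296 of the 14897 genes tested. These 16 included 5 plaque-associated (Spp1, Itgax, Tyrobp, Cd68 and Cd84), 3 homeostatic (Cx3cr1, Selplg and Siglech) and 2 lysosomal genes (Gusb and Ctsd). The others were 2 reactive astrocyte genes (Ggta1 and Cp) and 1 each of complement, cytokines (Ccl6), resting astrocytes (Aqp4) and precursors (Pdgfra). DESeq2 called 0 genes without male 1 and 0 without male 3, 1 without female 2, 17 without female 1, 37 without female 3 and 58 without male 2. With RIN as a covariate it called 31, of which 9 lay higher in females and 1 was among the 35. The edgeR alternatives and limma-voom each called 0.

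In APP/PS1/Hras-/- mice the medians of the microglial lists were smaller, and no gene passed the test of the difference between the genotypes. The RIN gap between the sexes also ran the other way in those mice, so genotype and RIN cannot be told apart fully here. Among APP/PS1/Hras-/- mice edgeR called 0 genes between the sexes, with 360 at an unadjusted p under 0.05, and every female lay above every male for 2.78% of genes. The plaque list had a median log2 difference of 0.23 there, with 27 of 33 higher in females, against 48.6% of all genes, and 2 with every female above every male, beside 0.52 in APP/PS1 mice. The sign was the same in both genotypes for 26 of the 33 plaque genes and 16 of the 20 homeostatic genes, against 45% of all genes. The homeostatic list had a median of 0.11, beside 0.53, and the reactive astrocyte list 0.14, beside 0.37. Interferon genes (0.32 beside 0.27), class I genes (0.44 beside 0.16) and class II genes (1.23 beside 0.89) did not have smaller medians in APP/PS1/Hras-/- mice.

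The interaction, the sex difference in APP/PS1 mice less that in APP/PS1/Hras-/- mice, called 0 of 14897 genes (0%) by edgeR and 0 by DESeq2; unadjusted p-values of edgeR were under 0.05 for 1052 genes (7.06%). Of the 33 plaque genes 3 stood at that level, of 20 homeostatic genes 7 and of 18 precursor genes 7. Pdgfra averaged 74.1 and 49.7 CPM in females and males of APP/PS1 and 55.4 and 67.5 CPM in those of APP/PS1/Hras-/- (interaction log2 0.86, SE 0.19, edgeR adjusted p = 0.679). Aqp4 averaged 178 and 112 CPM beside 136 and 142 CPM (interaction 0.73, SE 0.23, edgeR adjusted p = 0.679). Cst7 averaged 37.5 and 11.9 CPM beside 24 and 12.2 CPM (interaction 0.68, SE 0.69, edgeR adjusted p = 0.805), and Trem2 66.5 and 37.4 CPM beside 53 and 36.4 CPM (interaction 0.29, SE 0.38). RIN in APP/PS1/Hras-/- mice was lower in every female than in every male, at 8.5, 8.4 and 8.3 against 8.6, 8.7 and 8.7. This is the reverse of the order in APP/PS1 mice, so the interaction also sets opposite RIN gaps against each other.

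**Figure D5:**
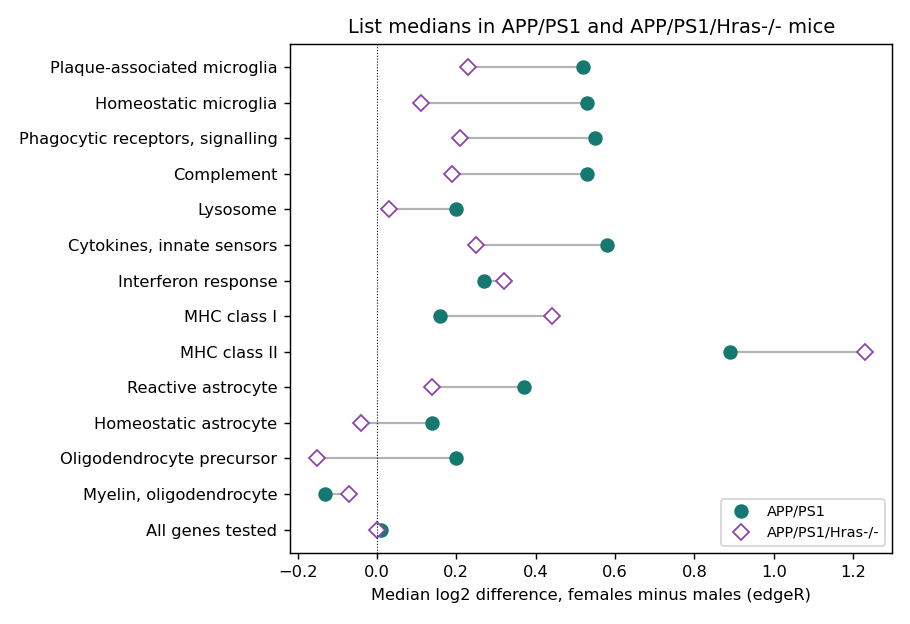
Median log2 difference (females minus males, edgeR) of 13 glial lists and of all genes tested, in APP/PS1 mice (filled circles) and APP/PS1/Hras-/- mice (open diamonds). The plaque, homeostatic and phagocytic medians lie at 0.52, 0.53 and 0.55 in APP/PS1 mice and at 0.23, 0.11 and 0.21 in APP/PS1/Hras-/- mice, while MHC and interferon medians are higher in the latter; no gene passed the test of the difference.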

How the data were processed

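Counts per gene are as the authors deposited them, whole numbers without normalization, for 54532 Ensembl genes. Per the labels' protocols, total RNA of frontal cortex went into TruSeq Stranded mRNA libraries. Per the submitters' processing notes the tools were HISAT2 2.1.0, featureCounts, Trimmomatic 0.33 and FastQC 0.11.7, with the builds mm10 and mm9, whose roles are not stated. Neither the strand setting nor the handling of multi-mapped reads is given, so overlapping or near-identical genes, such as C4a and C4b or MHC class I genes, are uncertain. GENCODE M21 gave symbols and chromosomes; 37 genes had no match.

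Autosomal genes at 1 CPM or more in 3 of the 6 libraries were kept (91.6% to 93.1% of a library's counts). In R 4.3.3, edgeR 4.0.16 (TMM, robust quasi-likelihood F test) fitted 4 group means over all 12 libraries, so the APP/PS1/Hras-/- mice share the estimate of spread; p-values were adjusted by Benjamini-Hochberg over all genes tested, with a threshold of 0.05. CPM are scaled by TMM factors. List levels are means of log2(CPM + 1). Exact permutation tests are two-sided. Alternatives used DESeq2 1.42.0, limma-voom 3.58.1, other scalings and filters, RIN as a covariate and each library left out. DESeq2 without single libraries or with RIN, the list counts under those settings and the values relative to the homeostatic list were added after seeing the data.

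Simulated data checked the test, with 50 changed genes at each size; 7 unchanged genes of 14897 were also called. Genes, lists and members were chosen with earlier results of these data known, so lists are described by counts and medians without a test. The rule for named genes took Hras, App, Prnp, the 5 smallest p in each direction (since none passed), a set of glial genes chosen by name, the 2 smallest p of each glial list and the 2 most abundant markers of each other cell type. Other genes were named after their values were seen, and a few genes under the rule are not reported here. Replicate numbers follow deposit order and pair no mice.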

Additional observations from a re-analysis of the deposited data

How the results depend on the processing

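The count of 0 called genes held in edgeR with RLE or upper quartile scaling, no filter, filterByExpr, the sex chromosomes kept, non-robust dispersions, the 6 APP/PS1 libraries alone, a threshold of 0.1, RIN as a covariate and each library left out, and in limma-voom, for the sex difference and, where it could be fitted, the interaction. DESeq2 called 35 genes for the sex difference, 31 with RIN as a covariate, and with single libraries left out 0 (male 1), 0 (male 3), 1 (female 2), 17 (female 1), 37 (female 3) and 58 (male 2). With RIN as a covariate the list medians were 0.32 (plaque), 0.4 (homeostatic microglia), 0.22 (phagocytic), 0.26 (complement), 0.45 (cytokines) and −0.4 (myelin); they changed sign for interferon (−0.01), MHC class I (−0.14), MHC class II (−0.16) and App processing (−0.11), as did the log2 differences of Hras (0.11), App (−0.14), Ifit3 (−0.11), H2-K1 (−0.83), B2m (−0.03), Slc1a2 (−0.05), H2-Eb1 (−0.33), Hbb-bs (−0.64), Camk2a (−0.09) and Slc17a7 (0.03). The cause was not tested. The interaction could not be fitted with the 6 libraries alone. With single libraries left out the median ran from 0.46 to 0.68 for the plaque list, 0.43 to 0.57 for homeostatic microglia and 0.35 to 0.46 for reactive astrocytes, the highest values of the plaque and reactive lists without male 2. Leaving out 1 library also changed the sign for Prnp (−0.01 to 0.08), Ifit3 (−0.04 to 0.27), H2-K1 (−0.13 to 0.41), Mbp (−0.47 to 0.12), Ttr (−0.84 to 5.09), Pde10a (−0.44 to 0.64), Ppp1r1b (−0.59 to 0.24), Camk2a (−0.02 to 0.09) and Arc (−1.2 to 0.09), and limma-voom gave 0.25 for Pde10a. No paired analysis was possible because the labels give no replicate numbers shared between groups.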
